A study of Fragaria vesca with 3 samples.

Results

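Of the 13283 merged peaks of FvSEP3, a MADS-domain transcription factor of woodland strawberry (Fragaria vesca), 1493 lay in the first exon of a gene (11.2%, 95% Wilson interval 10.7% to 11.8%). A peak was counted when its deposited position label named an exon and gave it as number 1 of the gene, and the gene was taken as the one named in that label. In 656 of the 1493 (43.9%, interval 41.4% to 46.5%) the gene had a single exon, so that exon 1 was the whole transcribed gene, and in 837 the gene had more than 1 exon. The peaks lay in 1454 genes, 632 with a single exon and 822 with several. Peaks labelled as 5′ UTR or as promoter formed classes of their own and are not among the 1493.

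The measurement was DNA affinity purification sequencing (DAP-seq) on genomic DNA of wild-type fruit collected 30 days post anthesis. Genomic DNA was extracted from isolated nuclei, and the samples were 2 FvSEP3 immunoprecipitation (IP) replicates, called biological replicates by the submitters, and 1 input library as negative control. Peaks came as 1 list for IP replicate 1 (19298 peaks), 1 for IP replicate 2 (21823 peaks) and 1 merged list. The purified DNA carries no nucleosomes, so the peaks describe contact of the protein with DNA outside the cell, and no read count came with them, which leaves the depth behind each value unknown.

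SEPALLATA proteins such as SEP3 bind DNA as dimers and larger complexes with other MADS-domain proteins, at short AT-rich motifs called CArG boxes. In Arabidopsis they are needed for the identity of all floral organs, and related genes in fleshy-fruited plants take part in ripening. Plant transcription factors are usually mapped to promoters, and the first exon is the piece of the gene body next to the promoter, which in multi-exon genes ends at the first intron.

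The fold enrichment of a peak, the ratio of IP to background signal that the authors deposited for it, describes peaks within a list. Peaks of a list are not replicates of each other and only 2 IP lists exist, so the values below are counts, medians and spreads with no test. Intervals of shares cover counting error only.

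First-exon peaks made up a similar share of each IP list. They numbered 1900 of 19298 peaks in replicate 1 (9.85%) and 2296 of 21823 in replicate 2 (10.5%), a mean of 10.2% ± 0.478 (SD, n = 2). Single-exon genes held 810 of the 1900 and 1010 of the 2296, a share of 43.3% ± 0.960 (SD, n = 2). Over the 7 chromosomes the first-exon share of the merged peaks lay between 9.46% on chromosome 4 and 12.3% on chromosomes 3 and 5. Another 8 of the 1493 lay on unplaced contigs.

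The strongest first-exon peak of the merged list was in FvH4_6g15970, an uncharacterized gene of 2 exons, at positions 9975185 to 9975736 of chromosome 6, enriched 5.50-fold in replicate 1 and 5.89-fold in replicate 2. Coordinates here and below are as deposited, and the sources used here do not name their genome build. The peak's midpoint lay 408 bp inside the gene. Next among multi-exon genes came FvH4_3g19661, which has no description, with 5.51 in replicate 1 and 4.72 in replicate 2. Both replicates placed these peaks well above their list's median.

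Several of the other leading multi-exon genes have a known biochemical role. FvH4_5g25380, described as SUVH6, an enzyme that methylates lysine 9 of histone H3, carried a peak of 4.77-fold in replicate 1 and 5.00-fold in replicate 2 (chromosome 5, 16904728 to 16905775), 1230 bp inside the gene. Phospholipase D gamma 1 (FvH4_7g12760), which releases phosphatidic acid from membrane lipids, had 5.09 and 4.65 at 263 bp. The patellin-5-like gene FvH4_3g14971, of a family of lipid-binding proteins with a Sec14 domain, had 5.14 and 4.31 at positions 9285920 to 9287884 of chromosome 3, an interval longer than most of the list. FvH4_3g36540, scarecrow-like protein 14 of the GRAS family of transcriptional regulators, had 4.02 and 5.24, a larger gap between replicates than in the other 3.

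Another was FvH4_2g31200, described as ACAULIS5, the thermospermine synthase that restrains xylem formation in Arabidopsis. Its peak at positions 23984060 to 23984671 of chromosome 2 had 4.31-fold in replicate 1 and 5.11-fold in replicate 2. The merged midpoint lay 48 bp inside the gene, and both IP lists labelled the same peak as promoter. Its label thus differed between the lists.

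The remaining 3 of the 10 leading multi-exon genes encode pentatricopeptide repeat (PPR) proteins, which bind organelle RNA and act in its editing, splicing and stability. FvH4_7g17740 had 4.72 in replicate 1 and 5.44 in replicate 2, FvH4_3g03070 had 5.25 and 4.24, and FvH4_3g35830 had 4.60 and 4.70. The midpoints of these peaks lay 1191, 304 and 1327 bp inside the gene.

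Among single-exon genes the strongest peak was that of FvH4_3g45641, described as a disease resistance protein, with 5.37 in replicate 1 and 5.10 in replicate 2 (chromosome 3, 37831842 to 37832465). Both IP lists labelled this peak as a promoter of the neighbouring gene FvH4_3g45642, so its place in a first exon holds for the merged list only. It was followed by the uncharacterized FvH4_3g32805 (4.72 and 5.12) and by the PPR gene FvH4_4g30220 (4.75 and 4.79), whose 2 values were the closest of these 3 genes. Both IP lists labelled the peak of FvH4_4g30220 as first exon of that gene but assigned it to FvH4_4g30221.

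The next single-exon genes covered unrelated functions. An EXO70B1-like gene (FvH4_6g53940), for a subunit of the exocyst complex that tethers secretory vesicles, had 5.14 in replicate 1 and 4.25 in replicate 2. A reticuline oxidase-like gene (FvH4_3g11300), of the flavin-linked oxidases related to the berberine bridge enzyme, had 5.03 and 4.31. For the ABC transporter F family gene FvH4_5g13880 the values were 4.92 and 4.39. FvH4_3g36670, scarecrow-like protein 30, had 4.50 and 4.45 at positions 31434344 to 31434588 of chromosome 3, 1673 bp inside the gene, beside a stronger peak of 6.21 and 5.65 in its 5′ UTR. The remaining 3 were the uncharacterized FvH4_2g18490 (4.66 and 4.51), the WEB family gene FvH4_1g20290 (4.99 and 3.89) and the uncharacterized FvH4_7g29320 (3.92 and 4.91). Of the 20 leading peaks, 18 were labelled first exon in both IP lists too.

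First-exon peaks had about the enrichment of other peaks. The authors' mean fold had a median of 3.14 over the 1493 peaks, with quartiles of 2.86 and 3.49 and a highest value of 5.69, against a median of 3.12 over all other merged peaks and 3.13 in later exons. The median was 3.09 in single-exon genes and 3.17 in multi-exon genes. In the IP lists the median of first-exon peaks was 3.06 ± 0.000771 (SD, n = 2), against 3.03 ± 0.0344 for all other peaks and 3.03 ± 0.0121 for later exons. The first-exon median exceeded that of all other peaks by less than the SD of their 2 medians. Among multi-exon genes the median was 3.17 where exon 1 was 1 of 2, 3.19 for 3 exons and 3.22 for 4 exons, without a steady course at larger numbers.

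Peaks with a mean fold of at least 4 numbered 102 of the 1493 first-exon peaks (6.83%), against 5.69% of all merged peaks and 7.10% of later-exon peaks. They were 39 of the 656 peaks of single-exon genes and 63 of the 837 peaks of multi-exon genes. A mean −log10 q of at least 10, where q is the peak caller's adjusted p-value, was reached by 937 first-exon peaks (62.8%), against 57.4% of all merged peaks and 60.2% of later-exon peaks. On both measures the first-exon share was close to that of later exons.

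**Figure D1:**
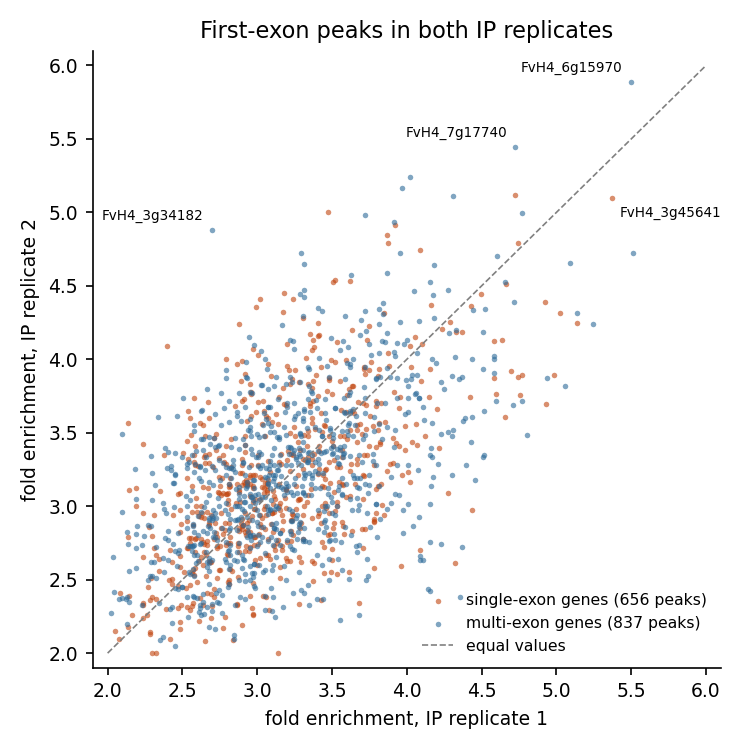
Fold enrichment of each of the 1493 first-exon peaks in IP replicate 1 (horizontal axis) and IP replicate 2 (vertical axis), as deposited, with single-exon and multi-exon genes in 2 colours and a dashed line of equal values. Points of both kinds of gene overlap and spread to both sides of the line, and 741 of the 1493 peaks lie on the side where replicate 1 is higher.

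The enrichment of a first-exon peak varied between replicates by an amount that was large beside the distance between the quartiles of mean fold (2.86 and 3.49). Spearman's rho between the replicate values was 0.522 over the 1493 peaks, 0.541 in single-exon genes and 0.505 in multi-exon genes, against 0.536 over all other merged peaks and 0.573 in later exons. These correlations are across peaks that share both libraries and describe the lists. The median absolute difference between the replicates was 0.339. Many neighbours among the 20 leading peaks differed in mean fold by less than this gap. The error of a mean over 2 replicates was not estimated, so the order of such neighbours is not settled.

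First-exon intervals were longer than those of all other peaks as a whole and close in length to those of first introns. Their median length in the merged list was 428 bp (quartiles 324 and 599), against 390 bp over all other peaks and 414 bp for first introns. In the IP lists the medians were 323 bp in replicate 1 and 329 bp in replicate 2, against 301 and 303 bp for all other peaks and 314 and 328 bp for first introns of the same lists.

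The deposited distance to the gene start ran, in the merged list, from the midpoint of the interval, as tested on 1769 of 1769 transcripts with more than 1 peak. For the 1485 first-exon peaks assigned to their own gene, the median distance was 521 bp downstream of the start, with quartiles of 211 and 967 bp and a range of 1 to 3541 bp. It was 651.5 bp in single-exon genes and 412 bp in multi-exon genes. Peaks of the 5′ UTR had a median of 187 bp, those of the first intron 471 bp and those of later exons 1318 bp.

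Within 500 bp of the gene start lay 726 of the 1485 peaks (48.9%), 266 of 648 in single-exon genes (41.0%) and 460 of 837 in multi-exon genes (55.0%). In 395 of the 1485 peaks (26.6%) the interval itself covered the gene start, in 21.1% of peaks of single-exon genes and 30.8% of those of multi-exon genes. A further 345 peaks (23.2%) lay more than 1000 bp inside the gene, 179 in single-exon and 166 in multi-exon genes. Exon lengths were not analysed here, so how far these distances follow the length of the first exon was not tested.

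**Figure D2:**
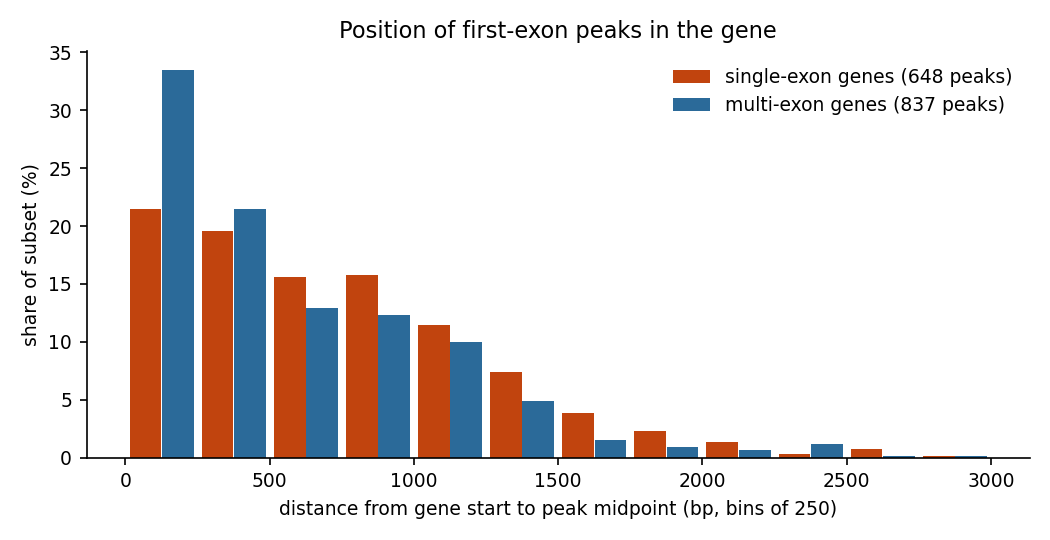
Distance from the gene start to the peak midpoint (horizontal axis, bp, in bins of 250) for the 1485 first-exon peaks assigned to their own gene, as a share of the 648 peaks of single-exon genes and of the 837 peaks of multi-exon genes (vertical axis, %). The first bin holds 21.5% of the peaks of single-exon genes and 33.5% of those of multi-exon genes, and both distributions thin out beyond 1000 bp; bins up to 3000 bp are drawn, which leaves out 2 peaks of multi-exon genes.

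Where the same peak stood in the IP lists, its label depended on the list. Of the 1493 merged first-exon peaks, 1259 were labelled first exon in replicate 1 (84.3%), 1274 in replicate 2 (85.3%), 1182 in both (79.2%) and 142 in neither (9.51%). Peaks of single-exon genes kept the label in both lists more often, in 584 of 656 (89.0%) against 598 of 837 in multi-exon genes (71.4%). The share in both lists was 76.8% for later exons, 70.4% for first introns, 68.1% for the 5′ UTR and 97.5% for intergenic peaks, each with its own label.

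Those with another label lay mostly next door in the gene. In replicate 1, 78 were labelled promoter within 1 kb, 71 first intron and 50 5′ UTR, and in replicate 2 the counts were 75, 68 and 52. The 78 and 75 promoter peaks had median merged distances of 53 and 47 bp, so they stood at the gene start. The IP lists measured the distance from another point inside the peak, which the files do not state. For the 1469 first-exon peaks assigned to the same transcript in both lists, the 2 points differed by a median of 40 bp (quartiles 16 and 110), against 35 bp over all 12835 such merged peaks, and 219 of the 1469 (14.9%) differed by more than 200 bp.

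First-exon peaks were found in both replicates more often than the list as a whole. In replicate 1, 1496 of the 1900 first-exon peaks overlapped a peak of replicate 2 by at least 1 bp (78.7%, interval 76.8% to 80.5%), against 70.5% of all peaks of that list, 73.5% of later-exon peaks and 69.6% of all peaks outside first exons. In replicate 2, 1518 of 2296 overlapped a peak of replicate 1 (66.1%, interval 64.2% to 68.0%), against 62.0% of all its peaks, 62.6% of later-exon peaks and 61.6% outside first exons. The first exon had the highest share of the position classes in replicate 1 but not in replicate 2, where first introns reached 66.7% and 5′ UTRs 67.2%. Kept in the merged list were 75.9% of the first-exon peaks of replicate 1 and 64.2% of those of replicate 2, against 68.8% and 60.9% of all peaks. The 2 lists share their overlapping peaks, so the pair of shares is not independent.

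**Figure D3:**
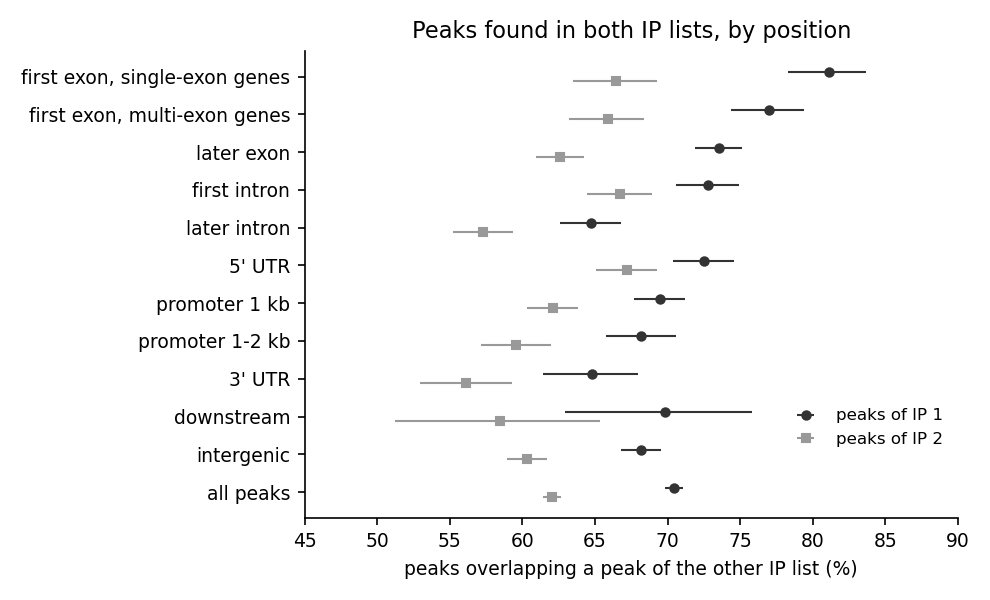
Share of peaks that overlap a peak of the other IP list by at least 1 bp (horizontal axis, %), by position class (vertical axis), for the peaks of each IP list, with 95% Wilson intervals that cover counting error. First-exon peaks are drawn for single-exon genes (81.1% in replicate 1 and 66.4% in replicate 2) and multi-exon genes (77.0% and 65.9%), and in every class the share is higher in replicate 1 than in replicate 2.

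Single-exon and multi-exon genes differed little in this respect. In replicate 1 the overlap was 81.1% of 810 peaks in single-exon genes and 77.0% of 1090 in multi-exon genes, and in replicate 2 it was 66.4% of 1010 and 65.9% of 1286. First-exon peaks found in both lists were stronger and longer than those found in 1 list. Their median fold was 3.11 against 2.86 in replicate 1 and 3.15 against 2.89 in replicate 2, and their median length 350 against 255 bp in replicate 1 and 384 against 257.5 bp in replicate 2.

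Because first-exon peaks were longer, the overlap was also read within 4 bands of length, bounded by the quartiles of length over all peaks of the list. In replicate 1 the first-exon share was 59.5%, 72.0%, 85.1% and 92.1% over the shortest to the longest band, against 48.8%, 67.4%, 77.3% and 85.8% for the other peaks. The first exon was higher in each band. In replicate 2 it was 37.2%, 56.1%, 73.8% and 86.9%, against 39.2%, 57.8%, 69.3% and 81.0%, so that the first exon was lower in the shorter 2 bands and higher in the longer 2. Within 4 such bands of fold enrichment the first-exon share was higher in all 4 in both lists, the strongest band reaching 88.3% against 79.9% in replicate 1 and 79.7% against 75.7% in replicate 2.

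The gene that the deposited table assigned to a first-exon peak was almost always the gene the peak lay in. It differed in 8 of the 1493 peaks (0.536%), against 218 of 2015 later-exon peaks (10.8%), 12 first-intron peaks (1.06%) and 173 later-intron peaks (14.1%). All 8 lay in single-exon genes. The IP lists had 11 such peaks in replicate 1 and 13 in replicate 2.

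Of these 8, the strongest was a peak of 3.87 in replicate 1 and 4.04 in replicate 2 in the PPR gene FvH4_6g48230, which was assigned to FvH4_6g48240. A peak in FvH4_1g03660, described as a vegetative cell wall protein, had 3.24 and 4.41 and was assigned to FvH4_1g03670. Replicate 1 labelled that peak as downstream of a gene, and replicate 2 assigned it to FvH4_1g03660 itself. The FERONIA gene FvH4_6g46580 held a peak of 3.54 and 3.26 that the merged list assigned to FvH4_6g46610, whereas both IP lists assigned it to FvH4_6g46580. The PPR gene FvH4_4g04640 (3.53 and 3.03) was passed over for FvH4_4g04632, and the MORC family gene FvH4_6g42820 (2.92 and 3.42) for FvH4_6g42830. The remaining 3 were in FvH4_5g06181, FvH4_6g38310 and FvH4_4g29332, none with a functional description, and were assigned to FvH4_5g06190, FvH4_6g38311 and FvH4_4g29333. In another 237 peaks the label and the assignment named different transcripts of the same gene.

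Among the 28 lists made from words in the gene descriptions, PPR proteins had the most first-exon genes. Of the 277 PPR genes with any merged peak, 169 had one in the first exon (61.0%, interval 55.2% to 66.6%), against 1454 of all 10634 genes with a merged peak (13.7%, interval 13.0% to 14.3%). They made up 11.6% of first-exon genes and 2.60% of all genes with a merged peak. Single-exon genes were 105 of the 169 and multi-exon genes 64, against 632 and 822 of all 1454 first-exon genes. In a single-exon gene any peak labelled exon counts as first exon, so a list rich in such genes can have a raised share. Whether the shares of this and the other lists follow the number of exons was not tested. A later-exon peak was found in 33 of the 277 PPR genes, against 1902 of all 10634 genes with a merged peak. The 182 first-exon peaks of PPR genes had a median fold of 3.05 and a median distance of 888.5 bp, against 3.14 and 521 bp over all first-exon peaks. A fold of 4 or above was reached by 13 of the 182, against 102 of all 1493 first-exon peaks (6.83%).

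The IP lists gave the same picture, with 194 of 333 PPR genes in replicate 1 (58.3%) and 228 of 360 in replicate 2 (63.3%). Of all genes of these lists, 12.8% in replicate 1 and 14.1% in replicate 2 had a first-exon peak. First-exon peaks of PPR genes overlapped the other list in 86.0% of 221 peaks in replicate 1 and 74.3% of 261 in replicate 2. Without PPR and F-box genes, 78.0% of first-exon peaks in replicate 1 and 65.0% in replicate 2 overlapped the other list. Both values were above the 70.5% and 62.0% of the whole lists, from which these genes were not removed. Outside PPR and F-box genes, 12.1% of genes with a merged peak had one in the first exon.

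**Figure D4:**
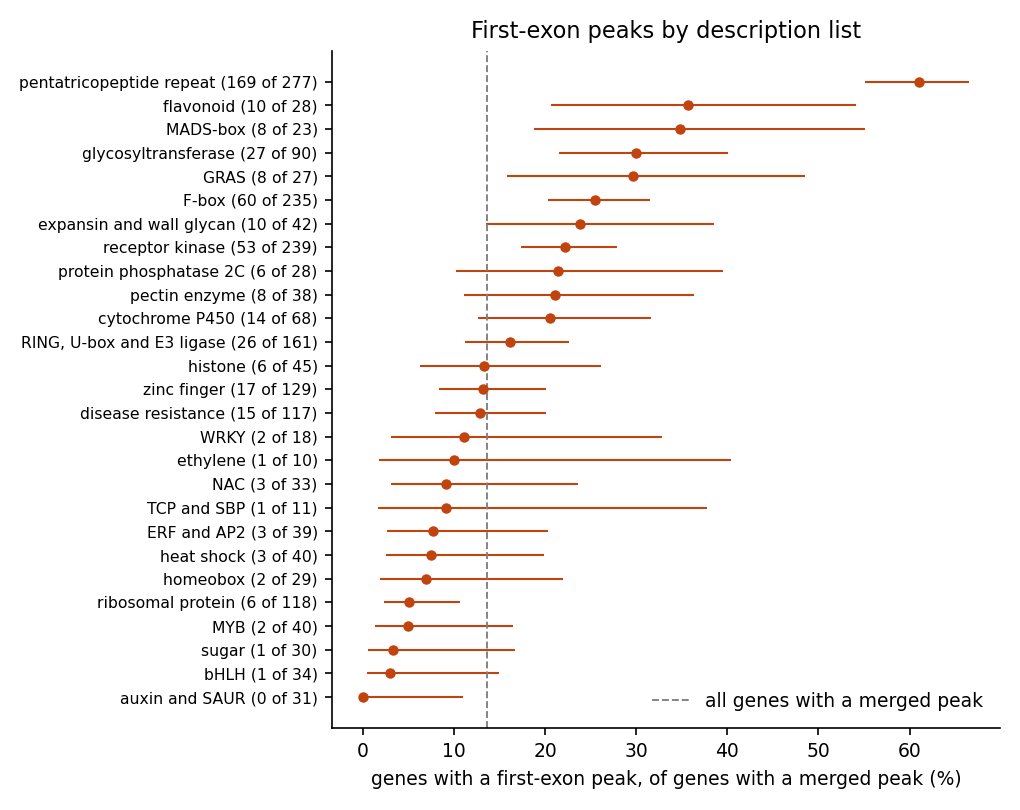
Share of the genes with a merged peak that had a first-exon peak (horizontal axis, %), for the lists made by words in the gene descriptions (vertical axis, with counts) and 95% Wilson intervals, with a dashed line for all genes with a merged peak. PPR genes stand at 61.0% and the intervals of most transcription factor lists reach the line of 13.7%.

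After PPR genes, the lists with the most first-exon genes were F-box proteins and receptor kinases. F-box proteins, the substrate receptors of SCF ubiquitin ligases, had a first-exon peak in 60 of 235 genes (25.5%, interval 20.4% to 31.5%), with 61 peaks at a median distance of 370 bp. The strongest, each with a mean fold of 3.98, were in a CPR30-like gene (FvH4_3g01100, 3.85 in replicate 1 and 4.11 in replicate 2) and in FvH4_6g53072 (3.83 and 4.12). CPR30 limits immune signalling in Arabidopsis. RING, U-box and other ubiquitin ligases had 26 of 161 genes (16.1%, interval 11.3% to 22.6%), close to the 13.7% of all genes, led by a RING1 gene (FvH4_6g46010, 3.76 and 4.03) and a U-box gene (FvH4_6g29581, 3.31 and 4.30).

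Receptor kinases had 53 of 239 genes (22.2%, interval 17.4% to 27.9%, against 13.7% of all genes), with peaks at a median of 1098 bp inside the gene, farther than those of F-box genes. The leading ones were FvH4_6g28530, described as FLS2, the flagellin receptor of Arabidopsis, with 4.16 in replicate 1 and 4.37 in replicate 2 at 2120 bp, and FvH4_7g14970 with 4.60 and 3.77. Disease resistance genes had 15 of 117 (12.8%), near the 13.7% of all genes, among them FvH4_3g45641, described above, and FvH4_7g33440 (4.01 and 3.82). Protein phosphatases 2C, some of which act in abscisic acid signalling, had 6 of 28 (21.4%, with an interval of 10.2% to 39.5% that includes the share of all genes), led by FvH4_5g21630 (2.93 and 3.87) and FvH4_3g11080 (2.67 and 3.30).

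Transcriptional regulators were mixed. Of MADS-box genes, the family of SEP3 itself, 8 of 23 with any peak had a first-exon peak (34.8%, interval 18.8% to 55.1%, against 13.7% of all genes), and 7 of these 8 were single-exon genes. By description 3 were AGL61 and 2 AGL80, single-exon type I MADS proteins that act in the central cell of the Arabidopsis embryo sac. The AGL61 genes had 4.06 in replicate 1 and 3.56 in replicate 2 (FvH4_2g40280), 3.83 and 3.70 (FvH4_6g50720, labelled 5′ UTR in replicate 2) and 3.11 and 3.07 (FvH4_6g03620), and the AGL80 genes 3.27 and 3.21 (FvH4_2g27630) and 3.24 and 2.81 (FvH4_6g43410). All 5 midpoints lay between 301 and 512 bp inside the gene.

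By description the other MADS-box members were single peaks of other branches, which was not checked by sequence. The AGL24-like gene FvH4_3g03630, whose Arabidopsis relative promotes flowering, had 3.63 in replicate 1 and 2.83 in replicate 2, and the AGL18 gene FvH4_1g18960, whose relative delays it, had 3.41 and 2.93. The only multi-exon one was FvH4_7g28690, described as MADS6-like, with exon 1 of 7 and values of 3.66 and 2.69. Both IP lists labelled its peak as first intron.

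GRAS proteins had a first-exon peak in 8 of 27 genes (29.6%, interval 15.9% to 48.5%, against 13.7% of all genes), 7 of them single-exon. At 4-fold or above were 3 of their 8 peaks, against 102 of all 1493 first-exon peaks (6.83%). Of the 8 peaks, 6 lay in 6 genes within 193 kb of chromosome 3, from 31293707 to 31486431, with mean folds of 2.94 to 4.63, and all 3 at 4-fold or above were among them, namely FvH4_3g36540, FvH4_3g36670 and FvH4_3g36570 (4.77 in replicate 1 and 3.90 in replicate 2). That stretch held 18 merged peaks of 13 GRAS genes in all. Neighbouring copies can share sequence, and the sources used here do not say how reads were divided between near-identical copies, so their peaks may not be independent. The cluster was chosen for mention after its values were seen.

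The other transcription factor lists had few genes with a first-exon peak, with intervals that include the 13.7% of all genes. In the merged list the counts were 3 of 33 genes for NAC (interval 3.14% to 23.6%), 3 of 39 for ERF and AP2 (2.65% to 20.3%), 2 of 40 for MYB (1.38% to 16.5%), 2 of 18 for WRKY (3.10% to 32.8%), 2 of 29 for homeobox (1.91% to 22.0%), 1 of 34 for bHLH (0.521% to 14.9%), and 1 of 11 for TCP and SBP (1.62% to 37.7%). ERF and AP2 genes differed between the IP lists, with 5 of 51 in replicate 1 (9.80%) and 13 of 61 in replicate 2 (21.3%), against 12.8% and 14.1% of all genes of these lists. Zinc finger proteins had 17 of 129, near the value of all genes, led by FvH4_5g07100 (3.29 in replicate 1 and 3.84 in replicate 2) and FvH4_4g30350 (3.46 and 3.55). Auxin and SAUR genes had 0 of 31 in the merged list (interval up to 11.0%), 4 of 44 in replicate 1 and 2 of 48 in replicate 2, and ethylene genes 1 of 10. Histone and histone-modifying genes had 6 of 45, led by the SUVH6 gene described above and the SUVH9-like FvH4_2g20121 (3.66 and 3.61), whose Arabidopsis relative binds methylated DNA.

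Genes of flavonoid metabolism, which gives strawberry fruit its colour, had a first-exon peak in 10 of 28 genes (35.7%, interval 20.7% to 54.2%, against 13.7% of all genes), 8 of them single-exon. Most encode glucosyltransferases that attach sugar to anthocyanidins or flavonoids. FvH4_7g23180 had 3.82 in replicate 1 and 3.57 in replicate 2, FvH4_7g24190 had 4.32 and 2.61, and FvH4_1g13970 had 3.18 and 3.70. The gap of FvH4_7g24190 between replicates was wider than that of the other 2.

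Weaker values were found in FvH4_2g05630 (3.10 and 3.57), FvH4_3g09760 (3.07 and 2.78), FvH4_3g38400 (2.95 and 2.82) and FvH4_7g30540 (2.66 and 2.67), all for glucosyltransferases. A flavonol synthase 3-like gene (FvH4_5g20430), for an enzyme that makes flavonols from dihydroflavonols, had 3.47 in replicate 1 and 3.004 in replicate 2, and a flavonoid 3′-monooxygenase-like gene (FvH4_1g08780), for the hydroxylation of the B ring, had 2.93 and 2.79. The 2-hydroxyisoflavanone dehydratase-like gene FvH4_2g06540 had 2.69 and 2.62. All glycosyltransferases together had 27 of 90 genes (30.0%, interval 21.5% to 40.1%, against 13.7% of all genes), 20 of them single-exon. They were led by FvH4_6g17080 (UDP-glycosyltransferase 73D1, 4.20 and 3.66) and FvH4_7g23180. Cytochromes P450 had 14 of 68 (20.6%, with an interval of 12.7% to 31.6% that includes the share of all genes), led by FvH4_7g12250 (3.75 and 3.21) and FvH4_2g33580 (3.65 and 3.19).

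Pectin genes, whose enzymes take the middle lamella apart as fruit soften, had a first-exon peak in 8 of 38 genes (21.1%), all of them multi-exon. The interval of 11.1% to 36.3% includes the 13.7% of all genes. The strongest was in a probable polygalacturonase (FvH4_3g12401), an enzyme that cuts the pectin backbone, with 3.96 in replicate 1 and 4.26 in replicate 2 at positions 7375041 to 7375438 of chromosome 3, 1074 bp inside a gene of 2 exons. Its values in both replicates were above the upper quartile of first-exon peaks. Pectate lyases had 3.32 and 2.76 (FvH4_5g06720) and 2.88 and 2.75 (FvH4_4g25110, 14 bp inside the gene and labelled promoter in replicate 2).

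Pectinesterases, which remove methyl groups from pectin, had 3.19 in replicate 1 and 3.48 in replicate 2 (FvH4_1g09320), 2.72 and 3.63 (FvH4_4g12140), 2.58 and 2.53 (FvH4_3g29490, described as QRT1, needed for pollen separation in Arabidopsis) and 2.38 and 2.55 (FvH4_5g35570). A polygalacturonase-inhibiting protein (FvH4_6g22810) had 2.88 and 3.001. Their mean folds lay between 2.47 and 3.34, on both sides of the first-exon median of 3.14.

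Expansin and wall glycan genes had 10 of 42 (23.8%), with an interval of 13.5% to 38.5% that includes the 13.7% of all genes. A cellulose synthase-like E1 gene (FvH4_3g42750) led with 3.92 in replicate 1 and 4.02 in replicate 2. Among the xyloglucan endotransglucosylase/hydrolases, which cut and rejoin xyloglucan chains, FvH4_3g00850 had 4.23 and 3.49, FvH4_4g09250 had 3.58 and 3.36, FvH4_7g13150 had 3.25 and 3.48, and FvH4_3g00840 had 2.87 and 2.91. Both IP lists labelled the peak of FvH4_3g00850 as 5′ UTR. The expansin-like A2 gene FvH4_2g16110 had 3.31 and 3.65.

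Enzymes that build xyloglucan side chains had 2.88 in replicate 1 and 4.24 in replicate 2 (KATAMARI1, FvH4_5g02120), 3.46 and 2.99 (xylosyltransferase 2, FvH4_2g25410) and 2.75 and 2.57 (FvH4_4g13210). The CslD3 gene FvH4_c1g00740 on a contig, whose Arabidopsis relative is needed for root hair growth, had 2.12 and 2.37. Of the 9-cis-epoxycarotenoid dioxygenases, which make the committed step to abscisic acid, 1 of 2 genes with a peak had it in the first exon. The interval of 9.45% to 90.5% includes the 13.7% of all genes. In the IP lists the counts were 0 of 2 in replicate 1 and 1 of 3 in replicate 2. The gene with the merged first-exon peak, NCED6 (FvH4_4g05900), had 3.68 and 2.34 at 53 bp. Both IP lists labelled that peak as promoter.

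Ribosomal protein genes had 6 of 118 (5.08%, interval 2.35% to 10.7%), below the share of all genes, led by FvH4_3g07980 (3.87 in replicate 1 and 2.98 in replicate 2) and FvH4_6g11730 (2.998 and 3.49), both for chloroplast ribosomes and both labelled first intron in the IP lists. Heat shock genes had 3 of 40 (interval 2.58% to 19.9%) and sugar genes 1 of 30 (0.591% to 16.7%), and both intervals include the 13.7% of all genes. Uncharacterized proteins had 348 of 2661 (13.1%), close to the share of all genes, and genes with no description 128 of 1301 (9.84%). The lists overlap in places and their words are not a curated annotation.

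A pair of first-exon peaks in the same gene occurred in 39 genes, and no gene had 3. Single-exon genes were 24 of the 39 and multi-exon genes 15, against 632 and 822 of all 1454 first-exon genes. By description 13 of the 39 were PPR genes, against 169 of the 1454 (11.6%). The midpoints of a pair were 906 bp apart in the median, from 489 bp in the STICHEL-like 3 gene FvH4_3g07230 to 2385.5 bp in the uncharacterized FvH4_1g25610. In 15 genes the spacing was 1000 bp or more and in 3 it was under 600 bp.

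Neither peak of a pair was regularly the stronger. Of the 37 genes where both distances were known, the peak nearer the gene start had the higher mean fold in 20. The nearer peak was higher in both replicates in 9 genes and the farther peak in 11, and in the other 17 the replicates put the pair in opposite order. The pairs with the clearest order ran both ways.

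In the heat shock 70 kDa gene FvH4_1g00710, for a chaperone, the peak at 734 bp had 2.29 in replicate 1 and 2.51 in replicate 2, and the peak at 1711 bp had 4.64 and 4.13. In FvH4_2g11110, described as NUCLEAR FUSION DEFECTIVE 4-like after an Arabidopsis protein needed for the fusion of nuclei, the peak at 106 bp had 2.98 and 2.61 and that at 1014 bp had 4.80 and 3.49. The farther peak was higher in both replicates of these 2 genes. The opposite order was found in the PPR gene FvH4_2g16640, with 3.41 and 4.01 at 1108 bp and 2.23 and 2.33 at 2384 bp, and in the mRNA-capping enzyme-like gene FvH4_5g25120, with 3.55 and 3.27 at 1350 bp and 2.33 and 2.37 at 2000 bp. The uncharacterized FvH4_3g34182 had the widest gap between replicates among peaks of these pairs, with 2.70 and 4.88 at 394 bp.

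**Figure D5:**
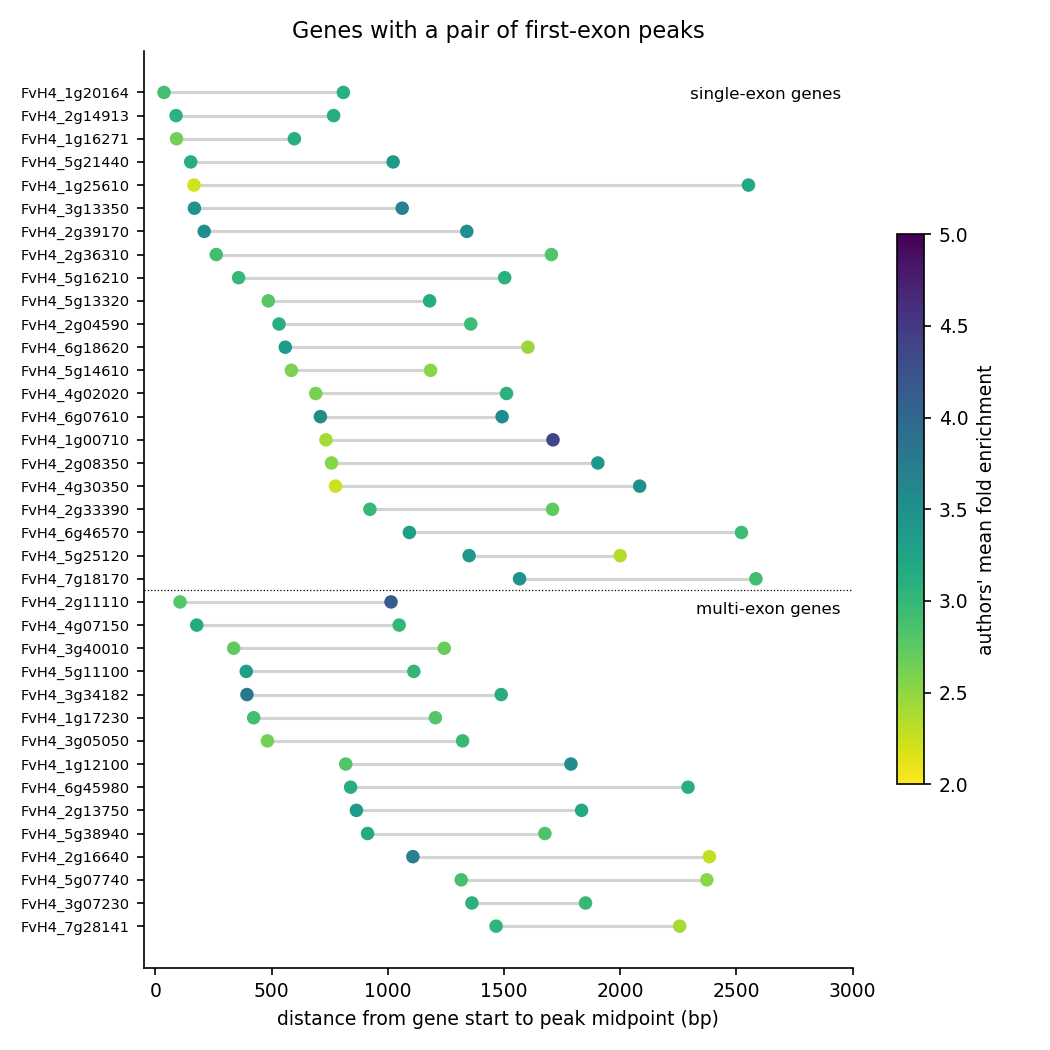
Position of both first-exon peaks in the 37 genes with a pair whose distances to the gene start were known (horizontal axis, bp from the gene start to the midpoint; 1 gene a line), with the authors' mean fold enrichment as colour. Stronger peaks occur on either side of a pair, and the nearer peak is the higher in 20 of the 37 genes.

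Other pairs with the farther peak higher in both replicates were in FvH4_1g25610 (2.16 in replicate 1 and 2.26 in replicate 2 at 166 bp, 3.26 and 3.14 at 2552 bp), in the zinc finger gene FvH4_4g30350 (2.23 and 2.24 at 775 bp, 3.46 and 3.55 at 2084 bp), and in the PPR genes FvH4_1g12100, FvH4_2g08350, FvH4_3g05050 and FvH4_4g02020. Further ones were in the acetyltransferase gene FvH4_1g16271, the SLU7-A-like splicing factor gene FvH4_5g13320 and the uncharacterized FvH4_5g21440. The nearer peak was higher in both replicates in the staphylococcal nuclease domain gene FvH4_2g33390, the F-box gene FvH4_5g11100, the uncharacterized FvH4_5g38940 and FvH4_7g28141, and the PPR genes FvH4_6g18620 and FvH4_7g18170. Single-exon and multi-exon genes occurred in both sets.

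In the other 17 pairs of known distance the replicates gave opposite orders. They were in the PPR genes FvH4_2g04590, FvH4_2g36310, FvH4_5g14610, FvH4_6g07610 and FvH4_6g45980, in NUCLEAR FUSION DEFECTIVE 4 (FvH4_3g40010), and in the genes for the RNA helicase FvH4_2g13750, DNA topoisomerase 1 (FvH4_2g39170), purine permease 4 (FvH4_3g13350), the cyclin-dependent kinase G-2-like protein FvH4_5g07740 and the RING-H2 protein FvH4_1g20164. Others were FvH4_3g07230 and FvH4_3g34182, named above, FvH4_1g17230, FvH4_2g14913, FvH4_4g07150 and FvH4_5g16210. The peak nearer the gene start was labelled promoter in both IP lists for FvH4_3g13350 and in replicate 2 for FvH4_1g20164. For FvH4_6g48230 and FvH4_6g46580 the distance of 1 peak to its own gene start was not known. The peaks of FvH4_6g48230 had 2.75 and 3.14 against 3.87 and 4.04, the same order in both replicates, as in FvH4_6g46580, described next.

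FERONIA-type receptor kinases held 5 first-exon peaks in 3 genes within 34.0 kb of chromosome 6, from 35498616 to 35532632, a set chosen after its values were seen. That stretch held 6 merged peaks of 4 FERONIA genes in all. Over all genes with a merged peak, 13.7% had one in the first exon. As for the GRAS cluster, neighbouring copies can share sequence, so these peaks may not be independent. FERONIA proteins are receptors of RALF peptides at the plasma membrane. FvH4_6g46570 had a pair of 3.32 in replicate 1 and 3.32 in replicate 2 at 1093 bp and of 2.77 and 3.09 at 2522 bp. FvH4_6g46580 had a peak of 3.58 and 3.48 at 189 bp, beside the peak of 3.54 and 3.26 that the merged list assigned elsewhere. In FvH4_6g46680 a single peak had 2.90 and 3.32 at 185 bp. All 5 had a mean fold between 2.93 and 3.53, around the median of first-exon peaks.

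Most first-exon genes had no other merged peak. A further peak of any class was assigned to or lay in 323 of the 1454 genes (22.2%), 118 of 632 single-exon genes (18.7%) and 205 of 822 multi-exon genes (24.9%), against 20.1% of all 10634 genes with a merged peak having more than 1. A gene with several peaks counts in several classes, so the share of every class can exceed 20.1%. In the other classes it ran from 24.4% for peaks labelled downstream of a gene to 38.3% for intergenic peaks. It was 34.4% for genes with a later-exon peak and 28.9% for genes with a 5′ UTR peak. The share of first-exon genes was the lowest of the position classes only with single-exon genes included. A single-exon gene has no later exon or intron in which a further peak could lie. Multi-exon first-exon genes, at 24.9%, stood above the 24.4% of the downstream class and below the 26.3% of first introns. Beside the first-exon peak, 113 genes had an intergenic peak assigned to them, 102 (7.02%) a promoter peak within 2 kb, 35 a later-exon peak, 21 a 5′ UTR peak and 10 a first-intron peak.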

How the data were processed

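DAP-seq with FvSEP3 was done on fruit genomic DNA, in 2 IP replicates and 1 input library, grouped by the labels. Per the submitters' processing notes, BWA served for alignment and MACS2 for peak calling; the sources used here give no version, setting or genome build. Each peak list held −log10 p-values and −log10 q-values and a fold enrichment (a ratio) per peak, as deposited by the authors. No peak had a fold under 2 or a −log10 q under 3. In the merged list each interval was the union of both replicates' peaks and the mean fold their average, in 13283 of 13283 rows. Position label, assigned gene and distance were the authors' deposited annotation.

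Computed here, with Python 3.11.15, pandas 2.3.3, numpy 2.4.6, scipy 1.17.1 and matplotlib 3.10.9, were the counts, medians, Wilson intervals and overlaps of at least 1 bp. Overlaps were checked with bedtools 2.31.1, which found the same 13597 shared peaks of replicate 1. The overlap step and the reading of first-exon and single-exon labels were also tested on simulated data. The word lists, distances, pairs and bands were not. Of all peaks, 68.8% of replicate 1 and 60.9% of replicate 2 were kept in the merged list.

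The 28 lists came from words in the gene descriptions. The members and the lists were chosen with earlier results of these data known. Named genes were the 10 strongest peaks of single-exon and of multi-exon genes by mean fold, genes with a pair of peaks, the 2 strongest of each list with at least 5 genes, members of the MADS, NCED, flavonoid, pectin and expansin lists up to 10 each, and genes whose assignment differed. Of the 1448 genes assigned to first-exon peaks, 880 matched the reference table (assembly FraVesHawaii_1.0), which was not used for positions. Alternatives were stricter folds and q-values, 1 replicate at a time, other overlaps, and chromosomes without contigs.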

Additional observations from a re-analysis of the deposited data

How the results depend on the processing

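Over 44 combinations of result and alternative, 13 moved by less than the spread of the IP lists and 31 moved by more. The spread was 1 SD (n = 2), and for the number of peaks a factor of 1.5. An SD of 2 values can be very small or large by accident, so these counts do not measure stability. It was 0.000771 for the median fold, so that 3.143 to 3.145 without contigs counted as more. For the share found in both lists it was 8.925, so that 71.8% to 64.4% with 50% overlap of both peaks counted as less. The cause was not tested except where it follows from dropping peaks. The number of first-exon peaks, 1493 as reported, was 1900 to 2296 with 1 replicate alone, 767 for merged peaks at or above the median fold and 937 at a −log10 q of at least 10. Single-exon genes held 42.6% to 44.0% with 1 replicate alone and 40.4% at or above the median fold. The median fold was 3.06 with either replicate alone, 3.48 at or above the median fold, 3.39 at the stricter q and 3.14 without contigs. The assigned gene differed in 0.566% to 0.579% with 1 replicate alone, 0.913% at or above the median fold and 0.747% at the stricter q. Peaks within 500 bp of the gene start were 49.2% with either replicate alone, 50.3% at or above the median fold, 48.7% at the stricter q, 48.6% without contigs and 48.6% with every deposited distance. Over both IP lists together 71.8% of first-exon peaks were found in both, 66.1% to 78.7% by list, 57.0% at or above the median fold, 57.4% at the stricter q (both lists filtered) and 60.1% with midpoints within 100 bp.

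A pair of alternatives was chosen after seeing the data. Peaks labelled first exon in both IP lists too gave 49.4% in single-exon genes, a median fold of 3.16, 0.592% with another assigned gene and 40.1% within 500 bp. Without PPR genes the values were 41.3%, 3.16, 0.458% and 54.2%. No paired analysis was possible because only the IP samples had peak lists, so no groups were compared. Without read counts the depth is unknown, and exon lengths and the share of the genome in first exons were not analysed here. The labels do not say whether the replicates came from separate plants, so their spread may be technical.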
